A study of Mus musculus with 20 samples.

Results

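A set of 224 genes rose by day 14 of embryoid body (EB) differentiation in every one of 4 mouse induced pluripotent stem cell (iPSC) lines, out of 16516 genes with a mean count of 10 or more and 55573 genes in the table. The genes were selected on their day 0 and day 14 values alone, as those whose level on the log2(CPM + 1) scale was at least 1.5 units higher on day 14 than on day 0 in each line, which is 1.36% of the genes measured. CPM is the count of a gene scaled to the total of its library after TMM normalization, and 1.5 units correspond to at least a 2.83-fold increase. The rises between day 0 and day 14 are therefore given as a description without a test, and tests were run on days 3, 5 and 7, which the selection did not use. All 224 genes were protein coding, and 83 genes fell by 1.5 units or more in every line.

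The study followed the differentiation of iPSCs that carried or lacked Nox4, an NADPH oxidase that produces reactive oxygen species. The wild type lines were WT#1-4 and WT#20D-17, and the lines from Nox4 knockout mice were Nox4-/-#5-8 and Nox4-/-#5-23. The lines were grown from picked colonies of mouse embryonic fibroblasts reprogrammed with retroviral Oct4, Sox2, Klf4 and c-Myc, were kept on mitotically inactive fibroblast feeder cells with LIF, and were differentiated by hanging drop culture without LIF and plating on gelatin. RNA was sequenced on days 0, 3, 5, 7 and 14 of differentiation, with 1 library per line and day and 20 libraries in all. The sample titles give the last day as day 14, whereas the protocol text of the labels gives day 10. WT#20D-17 is known here from the labels alone, and the reprogramming is described for the other 3 lines. Each line is a single clone, so a difference between genotypes cannot be told apart from a difference between clones beyond the spread of 2 lines each. Whether the days of a line came from separate cultures is not stated, and the spread between libraries may be partly technical.

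Library totals lay between 20294968 and 27708023 counts, so that 3 counts in a library corresponded to between 0.109 and 0.157 CPM. Nox4 itself had 3 to 22 counts in the WT#1-4 libraries and 56 to 203 in the WT#20D-17 libraries, against at most 2 counts in any Nox4-/- library. WT#20D-17 stood apart from the other lines. The summed level of 7 pluripotency markers (Pou5f1, Nanog, Zfp42, Esrrb, Dppa5a, Utf1 and Tdgf1) fell there from 3560 CPM on day 0 to 90.3 CPM on day 14, whereas it was 1290, 1880 and 3680 CPM on day 14 in WT#1-4, Nox4-/-#5-8 and Nox4-/-#5-23. The summed level of 4 visceral endoderm markers reached 848 CPM on day 14 in WT#20D-17 and at most 2.13 CPM in the other lines, and that of 10 fibroblast markers reached 3300 CPM against 13.4 to 138 CPM. These marker levels moved with the line, and their part in the results was not tested. In bulk RNA, fewer cells of a type and less RNA per cell cannot be told apart. Without WT#20D-17, 558 genes met the rule in the remaining 3 lines, more than after leaving out any other line (271 to 303), and the 224 genes and their list counts are given for all 4 lines.

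When LIF is withdrawn and pluripotent cells aggregate into an EB, they leave the pluripotent state and form an outer epithelium on a basement membrane and an inner mass of precursor cells. As the aggregates grow, oxygen reaches the inner cells less well, and cells in low oxygen stabilise the HIF transcription factors, which act on genes for glycolysis, vessel growth and collagen hydroxylation. Attachment to the dish brings stretch, contact and growth factor signals that act through AP-1, YAP and SRF on genes for the cytoskeleton and the matrix. Annexins and S100 proteins bind calcium at membranes, and galectins bind sugar chains at the cell surface.

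The medians of the rise were of similar size in the 4 lines, but the selection asked for at least 1.5 units in each line, so this likeness is partly set by the rule. The median rise of the 224 members was 2.92 log2 units in WT#1-4, 2.58 in WT#20D-17, 2.78 in Nox4-/-#5-8 and 2.55 in Nox4-/-#5-23, or 7.56-, 6-, 6.85- and 5.85-fold. The median change of all measured genes lay between -0.04 and 0 in the 4 lines. A single line was far less selective, since 9.52%, 11.5%, 8.29% and 8.39% of measured genes rose by 1.5 units in these lines taken one at a time. The members together held 0.388% to 0.563% of the reads on day 0 and 3.18% to 4.3% on day 14. WT#20D-17 gave the smallest of the 4 rises for 83 members and the largest for 69. The day 14 level of a member differed between the highest and the lowest line by a median of 4.8-fold, and by over 10-fold for 54 members, of which 30 were lowest and 19 were highest in WT#20D-17. Without this line the median was 2.56-fold, and 10 members differed by over 10-fold.

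**Figure D1:**
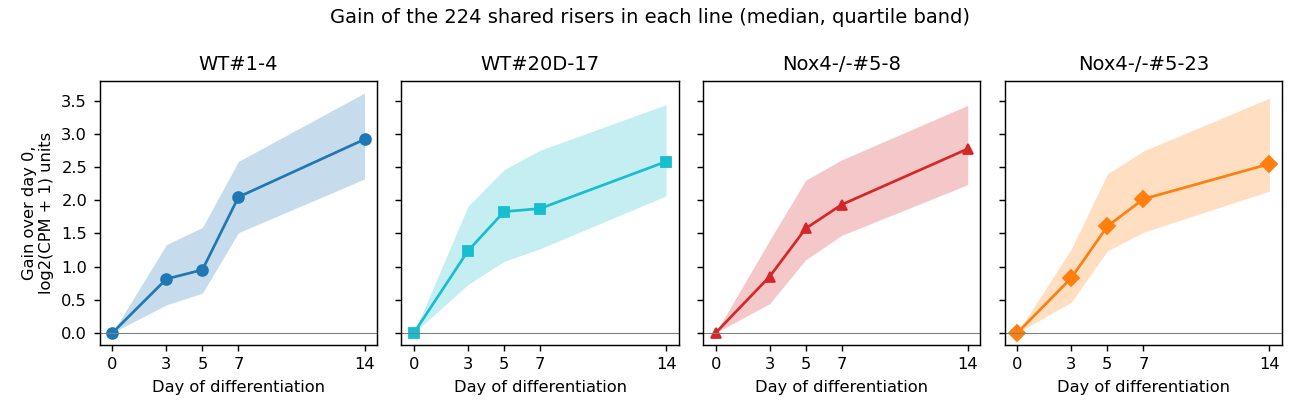
Gain of the 224 members over day 0 in log2(CPM + 1) units (vertical axis) against the day of differentiation (horizontal axis), with 1 panel per line. Points are medians over members and bands run from the lower to the upper quartile; the WT#1-4 median stayed at 0.95 on day 5 and was 2.05 on day 7, while WT#20D-17 was at 1.83 on day 5 and 1.88 on day 7.

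The day of the rise differed between the lines. For each member and line, the day of the rise was taken as the first day on which the member had gained at least 50% of its own day 14 rise. In WT#1-4, 30 members reached this level on day 3, 26 on day 5, 145 on day 7 and 23 on day 14. WT#20D-17 was earlier, with 104 members on day 3, 61 on day 5, 14 on day 7 and 45 on day 14. The Nox4-/- lines had 48, 91, 57 and 28 members in Nox4-/-#5-8 and 32, 134, 40 and 18 members in Nox4-/-#5-23 on days 3, 5, 7 and 14. By day 5, 25% of the members had passed this level in WT#1-4, against 73.7% in WT#20D-17, 62.1% in Nox4-/-#5-8 and 74.1% in Nox4-/-#5-23. By day 7 the shares were 89.7%, 79.9%, 87.5% and 92%. On day 5, WT#1-4 thus stood below the other 3 lines, and the WT lines were not closer to each other than to the Nox4-/- lines.

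**Figure D2:**
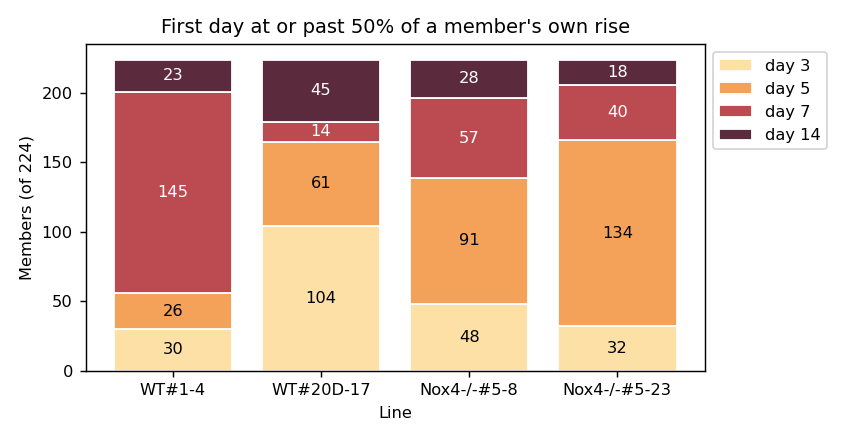
Number of members (vertical axis, of 224) by the first day on which at least 50% of the member's own rise was reached, stacked by day for each line (horizontal axis). In WT#1-4, 145 members fell on day 7, whereas 104 fell on day 3 in WT#20D-17 and 134 on day 5 in Nox4-/-#5-23.

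WT#1-4 rose in separate steps, as read from 1 library per day. Its median member gained 0.81 units by day 3, only 0.20 more between day 3 and day 5, and then 0.96 between day 5 and day 7. The largest step ended on day 5 for 1 member in WT#1-4, against 13, 34 and 67 in WT#20D-17, Nox4-/-#5-8 and Nox4-/-#5-23. Whether the day 5 library of WT#1-4 deviated was not tested. WT#20D-17 gained 1.24 units by day 3 and 0.53 between days 3 and 5, but 0.10 between days 5 and 7. The corresponding medians were 0.85, 0.76 and 0.35 in Nox4-/-#5-8 and 0.83, 0.85 and 0.37 in Nox4-/-#5-23. From day 7 to day 14 the median gain was 0.92, 0.83, 0.87 and 0.69 units in the order WT#1-4, WT#20D-17, Nox4-/-#5-8 and Nox4-/-#5-23. The course was rarely smooth, since 32 of the 224 members rose at every step in all 4 lines, and 84 did so in the 3 lines other than WT#20D-17. In WT#20D-17, 36 members were higher on day 7 than on day 14, against 12 to 18 in the other lines.

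Members that shared 1 day of the rise in all 4 lines were few, 8 of 224 or 3.57%, and 25 shared it in the 3 lines other than WT#20D-17. Of these, 6 rose by day 3, among them Bnip3, a mitochondrial protein that promotes mitophagy, Ndufa4l2, a mitochondrial protein induced in low oxygen, Pygl, the liver form of glycogen phosphorylase, Mme, the membrane peptidase neprilysin, and Tgm1, a transglutaminase that crosslinks the envelope of squamous cells. Bnip3 was at 40.2, 70.0, 24.7 and 17.3 CPM on day 0 and at 227, 278, 109 and 150 CPM on day 3 in WT#1-4, WT#20D-17, Nox4-/-#5-8 and Nox4-/-#5-23. It ended at 633, 375, 468 and 424 CPM on day 14. Days 0 and 14 chose Bnip3 as a member and day 3 placed it in this group, so these values are a description. Ndufa4l2 went from 3.84, 1.07, 0.36 and 0.26 CPM on day 0 to 78.0, 12.2, 40.7 and 11.5 CPM on day 3. It then stayed low in WT#20D-17, at 6.46 CPM on day 14, and reached 155, 188 and 48.4 CPM in the others. The remaining genes were Tcn2, the transcobalamin that carries vitamin B12, on day 5, and Tnfrsf23, a decoy receptor for TRAIL, on day 7.

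A shared order by genotype was also rare. The day of the rise was found for members only and rests in part on the day 0 and day 14 values that chose them. No share over all genes is therefore given beside these counts, and the order of the genotypes was not tested. Both WT lines were on an earlier day than both Nox4-/- lines for 5 members, namely Wnt11, Bmp6, Depp1, Wnt2 and Ankrd37. All of these but Ankrd37 were at or under 3.2 CPM in both Nox4-/- lines from day 0 to day 7. At such levels the day of the rise depends on the 1 added to the CPM. Both Nox4-/- lines were earlier for 19 members, led by Fcgrt, the neonatal Fc receptor, Sparc, Ntn4, a netrin of basement membranes, Chdh, choline dehydrogenase, and Ccn2, connective tissue growth factor. Ccn2 shows the pattern. In WT#20D-17 it was at 45.6, 90.6, 209, 223 and 2358 CPM on days 0, 3, 5, 7 and 14, and in WT#1-4 at 17.7, 66.3, 100, 119 and 309 CPM. In Nox4-/-#5-8 it was at 3.67, 16.99, 19.1, 19.99 and 26.6 CPM, and in Nox4-/-#5-23 at 2.04, 15.9, 35.6, 42.3 and 41.6 CPM. Both Nox4-/- lines had thus gained 50% of their smaller rise by day 3, WT#1-4 by day 5 and WT#20D-17 only by day 14. The same day was found for 36 members in both WT lines and for 100 members in both Nox4-/- lines.

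Between day 3 and day 7, days that the selection did not use but that lie between those it used, the members rose in the fit over all 4 lines. With edgeR's quasi-likelihood test on the 12 libraries of days 3, 5 and 7 and the line as a factor, 111 of 224 members (49.6%) were higher on day 7 at a false discovery rate (FDR) under 0.01, against 2.29% of all measured genes. No member was lower on day 7 by this edgeR test, by DESeq2 or at an unadjusted edgeR p under 0.05, against 1.65% of all genes that were lower past the FDR. The fitted change was above 0 for all 224 members and for 52.8% of all genes, with a median of 1.15 log2 units against 0.03. Day 7 exceeded day 3 within each of the 4 lines for 186 members, and for 18.3% of all genes. Within the 3 lines other than WT#20D-17 it did so for 222 members, and the share of all genes was not computed. By line, 224 members were higher on day 7 in WT#1-4 (49.4% of all genes) and 187 in WT#20D-17 (50.2% of all genes). In either Nox4-/- line 223 were higher, against 52% of all genes in Nox4-/-#5-8 and 47.7% in Nox4-/-#5-23. The count of calls depended on the line left out. It was 180 without WT#20D-17 (7.43% of all genes) and 37 without WT#1-4 (0.448% of all genes). Without either Nox4-/- line it was 0, and no other gene was called there, so these 2 settings do not single out the members. DESeq2 on all 12 libraries called 191 members, against 8.58% of all genes.

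**Figure D3:**
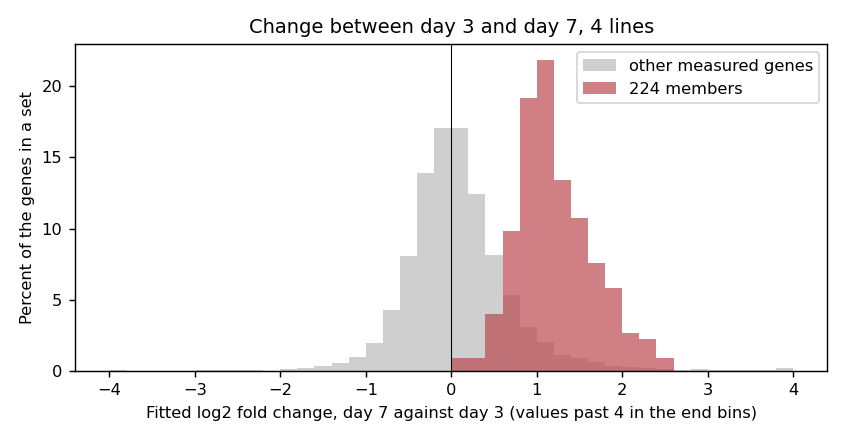
Distribution of the fitted log2 fold change of day 7 against day 3 over the 4 lines (horizontal axis), as the percent of genes in each set (vertical axis), for the 224 members and for the other measured genes. All members lie to the right of 0, with a median of 1.15, while the median of all measured genes is 0.03.

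The separate steps did not pass this test. Between day 3 and day 5 no member was called by edgeR at an FDR under 0.01, as was 0% of all genes, although 161 members were higher at an unadjusted p under 0.05 (8.49% of all genes) and DESeq2 called 40 (0.636% of all genes). The median change was 0.67. Between day 5 and day 7 edgeR called none, DESeq2 called 4 (0.121% of all genes), and 105 were higher at an unadjusted p under 0.05 (4.41% of all genes), with a median change of 0.45. Frmpd1, Chdh, Gpr50, Fbln5 and Daam2 had the largest changes from day 3 to day 7 among members past the FDR, with log2 fold changes between 2.19 and 2.58. Fbln5, fibulin 5 of elastic fibres, was at 47.4, 0.60, 3.52 and 11.04 CPM on day 3 and at 207, 2.97, 16.7 and 47.5 CPM on day 7 in WT#1-4, WT#20D-17, Nox4-/-#5-8 and Nox4-/-#5-23. Its log2 fold change was 2.22 ± 0.33 (SE; adjusted p = 0.00466), and all 4 lines rose although their levels differed widely. The most significant of the named lists' members was S100a1, a calcium-binding protein of muscle and other cells, with a change of 1.66 ± 0.12 (SE; adjusted p = 0.000666).

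The 10 members with the largest rise in their weakest line were Krt19, Loxl2, Clu, Egln3, Tinagl1, Vsir, Prss23, Timp3, Ier3 and Ypel2. Krt19 (ENSMUSG00000020911, chr11:100140810-100148665 of GRCm38, minus strand) encodes keratin 19 of simple epithelia. It was at 24.99, 6.11, 9.06 and 5.24 CPM on day 0 and at 1063, 257, 888 and 352 CPM on day 14 in WT#1-4, WT#20D-17, Nox4-/-#5-8 and Nox4-/-#5-23, so every line rose by at least 5.18 units. On day 3 it was already at 153, 114, 96.6 and 37.4 CPM, and on day 7 at 539, 152, 314 and 175 CPM, a change of 1.496 ± 0.36 (SE; adjusted p = 0.0193) that missed the FDR of 0.01. Krt8, the keratin of the same cells that pairs with type I keratins such as keratin 19, was far less even. It went from 57.9 to 1149 CPM in WT#20D-17 but from 4.98 to 137 CPM in WT#1-4, from 1.32 to 76.1 CPM in Nox4-/-#5-8 and from 0.04 to 4.01 CPM in Nox4-/-#5-23, where the day 0 value lies under the level of 3 counts.

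Loxl2 (ENSMUSG00000034205, chr14:69609068-69695834, plus strand), a lysyl oxidase that crosslinks collagen, rose from 16.3 to 538 CPM in WT#1-4, from 43.6 to 1317 CPM in WT#20D-17, from 5.43 to 154 CPM in Nox4-/-#5-8 and from 5.06 to 382 CPM in Nox4-/-#5-23. Its change from day 3 to day 7 was 1.74 ± 0.29 (SE; adjusted p = 0.00607). Exons of Loxl2 overlap another gene on the same strand, as do those of Ctsd, Ecm1 and Anxa3, so their counts depend on how RSEM divided shared reads. Clu (ENSMUSG00000022037, chr14:65968483-65981547, plus strand), the secreted chaperone clusterin, rose to 408, 573, 362 and 179 CPM on day 14 from 27.3, 21.0, 24.4 and 4.53 CPM. Its day 7 change was 1.65 ± 0.24 (SE; adjusted p = 0.00452).

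Tinagl1 (ENSMUSG00000028776, chr4:130164454-130175122, minus strand), a secreted matricellular protein, rose most in WT#20D-17, from 4.84 CPM on day 0 to 161 CPM on day 7 and 1847 CPM on day 14. The other lines ended at 75.2, 26.5 and 34.4 CPM. Vsir (ENSMUSG00000020101, chr10:60346851-60372684, plus strand), the immune checkpoint protein VISTA, was higher in both WT lines on every day. It went from 7.90 and 3.57 CPM to 99.7 and 102 CPM in the WT lines, and from 0.52 and 0.04 CPM to 24.7 and 12.3 CPM in the Nox4-/- lines, but the genotype difference over days 3, 5 and 7 did not pass the test (log2 fold change -2.34, adjusted p = 0.685). Its change from day 3 to day 7 was 1.93 ± 0.21 (SE; adjusted p = 0.00234).

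Timp3 (ENSMUSG00000020044, chr10:86300372-86349506, plus strand), a matrix-bound inhibitor of metalloproteinases, had another order. It reached 1076 and 575 CPM on day 14 in the Nox4-/- lines #5-23 and #5-8, 955 CPM in WT#1-4 and 191 CPM in WT#20D-17, from 12.0, 25.1, 39.3 and 16.5 CPM on day 0. Its day 7 change was 1.89 ± 0.23 (SE; adjusted p = 0.00338). The serine protease gene Prss23 (ENSMUSG00000039405, chr7:89507783-89527187, minus strand) peaked at 63.4 CPM on day 5 in WT#20D-17 and was at 29.4 CPM there on day 14, whereas it ended at 192, 79.9 and 294 CPM in the other lines. Ier3 (ENSMUSG00000003541, chr17:35821684-35822923, plus strand), an immediate early gene, ended at 120, 55.9, 86.2 and 80.1 CPM, from 2.52 to 5.70 CPM on day 0. Ypel2 (ENSMUSG00000018427, chr11:86936425-86993707, minus strand) ended at 359, 85.8, 199 and 334 CPM, and its day 7 change was 1.45 ± 0.17 (SE; adjusted p = 0.00283).

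**Figure D4:**
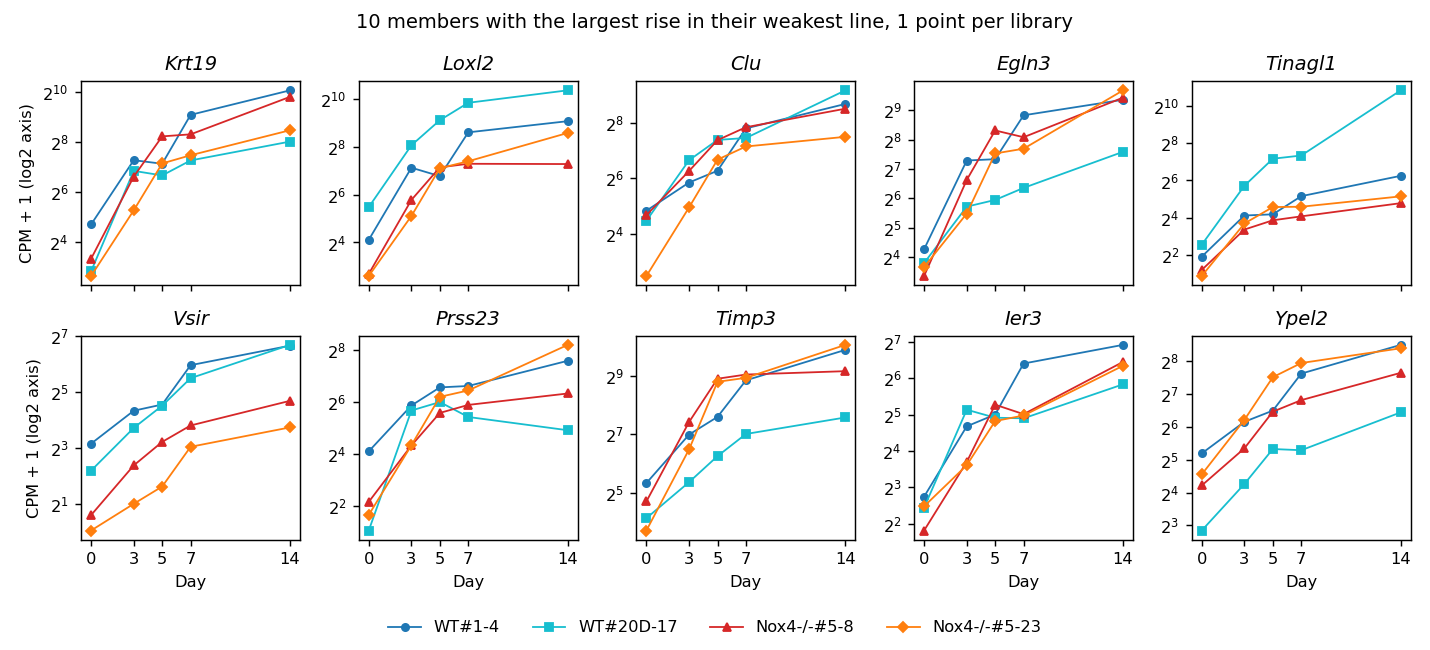
CPM + 1 on a log2 axis (vertical) against day (horizontal) for the 10 members with the largest rise in their weakest line, with 1 point per library and 1 colour and marker per line. Every curve ends above its start, Tinagl1 of WT#20D-17 reaches 1847 CPM, and Prss23 of WT#20D-17 falls from 63.4 CPM on day 5 to 29.4 CPM on day 14.

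Some members are known to respond to low oxygen. A list of such genes was drawn up after the member names had been seen and partly from them, and 22 of its 57 measured genes (38.6%) were members, so the count is a description. The promoters of members of this list are shown because HIF binds the letters ACGTG, and other forms of its site were not searched. Each line gives the 250 bases before the transcription start from RefSeq on GRCm38.p6, 5′ to 3′ on the gene's strand, for the leading 3 members of the list whose promoter was at hand and holds these letters on either strand, which are in capitals. Egln3 lies at chr12:54203875-54204124 on the minus strand, P4ha1 at chr10:59323046-59323295 on the plus strand and Nupr1 at chr7:126625471-126625720 on the minus strand.
Egln3: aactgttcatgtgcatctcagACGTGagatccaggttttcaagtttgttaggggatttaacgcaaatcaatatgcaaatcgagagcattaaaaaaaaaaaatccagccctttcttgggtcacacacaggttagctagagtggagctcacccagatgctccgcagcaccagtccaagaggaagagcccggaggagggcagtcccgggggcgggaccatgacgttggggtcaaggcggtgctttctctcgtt
P4ha1: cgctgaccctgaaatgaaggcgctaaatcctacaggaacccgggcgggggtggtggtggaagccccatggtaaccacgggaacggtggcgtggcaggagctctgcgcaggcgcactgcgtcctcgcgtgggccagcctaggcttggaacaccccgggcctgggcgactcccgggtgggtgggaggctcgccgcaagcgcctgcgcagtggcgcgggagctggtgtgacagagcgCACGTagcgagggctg
Nupr1: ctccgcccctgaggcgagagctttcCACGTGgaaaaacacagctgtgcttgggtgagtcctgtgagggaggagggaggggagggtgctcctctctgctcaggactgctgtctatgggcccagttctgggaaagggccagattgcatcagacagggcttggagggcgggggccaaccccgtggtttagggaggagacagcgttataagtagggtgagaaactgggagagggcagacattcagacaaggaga
In Nupr1 the letters stand within CACGTG, which other factors also bind. Among the 27025 genes of the promoter table, 16.6% held ACGTG in this window, and a match is no evidence of binding. A promoter was found for 175 of the 224 members (78.1%), under the 80% needed to compare the set, so a comparison of motif shares is void and was not made.

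Egln3 (ENSMUSG00000035105, chr12:54178981-54203860, minus strand) encodes PHD3, a hydroxylase that marks HIF for degradation. It was at 18.3, 12.9, 9.26 and 11.7 CPM on day 0, at 155, 51.6, 97.7 and 43.7 CPM on day 3 and at 653, 191, 687 and 815 CPM on day 14 in WT#1-4, WT#20D-17, Nox4-/-#5-8 and Nox4-/-#5-23, with the lowest end point in WT#20D-17. Vegfa, the main vascular growth factor, rose from 45.8 to 928 CPM in WT#1-4, from 42.4 to 373 CPM in WT#20D-17, from 13.5 to 204 CPM in Nox4-/-#5-8 and from 8.96 to 221 CPM in Nox4-/-#5-23. P4ha1 and P4ha2, subunits of the hydroxylase that stabilises collagen, both rose, and P4ha1 was also called between day 3 and day 7 (1.18 ± 0.19, SE; adjusted p = 0.00561). Epas1, which encodes HIF-2α, was at 119, 12.3, 43.6 and 55.9 CPM on day 0 and at 1147, 327, 386 and 585 CPM on day 14, and its day 7 change was 1.60 ± 0.25 (SE; adjusted p = 0.00496).

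Adm, the vasodilator adrenomedullin, was at or under 0.12 CPM in every line on day 0, which is within 3 counts, and at 151, 6.61, 7.19 and 14.8 CPM on day 14. Flt1, a receptor for vascular growth factors, ended at 257 CPM in WT#20D-17 and at 18.1 to 36.9 CPM elsewhere. Nupr1, a small stress-induced chromatin protein, rose late, and reached 50% of its rise on day 7 in WT#1-4 and on day 14 in the other lines. Of the 22 listed members, 7, 17, 9 and 6 had passed 50% of their rise by day 3 in WT#1-4, WT#20D-17, Nox4-/-#5-8 and Nox4-/-#5-23, and 22, 21, 20 and 18 by day 7. In WT#1-4 no further member of the list was added on day 5, since the count was 7 on both days. Between day 3 and day 7, 6 of the 22 passed the FDR, with a median change of 1.18. The call was made for 49.6% of all members and 2.29% of all genes.

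Annexins, S100 proteins and lectins had the largest share of members among the lists not drawn from the member names, 9 of 20 measured genes (45%). The members were Anxa1, Anxa2, Anxa3, S100a1, S100a6, S100a13, Lgals1, Lgals3 and Lgals9. Anxa2, an annexin that links membranes to actin, was at 281, 219 and 174 CPM on day 0 in WT#1-4, Nox4-/-#5-8 and Nox4-/-#5-23 but at 4.39 CPM in WT#20D-17. By day 3 it was at 707, 566, 661 and 214 CPM in the same order, and by day 14 at 1513, 2308, 1604 and 599 CPM. Its change from day 3 to day 7 was 0.85 ± 0.12 (SE; adjusted p = 0.00359). Anxa1, an annexin with anti-inflammatory action, showed the same gap, with 0.61 CPM on day 0 in WT#20D-17 against 22.4 to 37.6 CPM, and ended at 83.8 to 212 CPM.

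S100a6, a calcium-binding protein, stayed far lower in WT#20D-17, at 1.89 CPM on day 0 and 31.3 CPM on day 14, than in the other lines, where it went from between 115 and 191 CPM to between 499 and 1358 CPM. Its change from day 3 to day 7 was 0.54 ± 0.24 (SE; adjusted p = 0.13). Lgals1, galectin-1, ended at 576, 192, 2326 and 1062 CPM from 78.9, 34.2, 185 and 154 CPM, and its day 7 change passed the FDR (0.89 ± 0.12, SE; adjusted p = 0.00359). Lgals3, galectin-3, rose from 75.5, 2.21, 23.2 and 36.1 CPM to 740, 215, 427 and 328 CPM. Of the 9 genes, 5 passed the FDR of 0.01 for a higher level on day 7 than on day 3, against 49.6% of all members and 2.29% of all genes. In WT#20D-17 7 of the 9 had passed 50% of their rise by day 3, against 1 to 3 in the other lines.

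Ly6a, the GPI-anchored surface protein Sca-1, differed most between the lines at day 14, by 407-fold. It went from 95.2, 285 and 191 CPM to 605, 1325 and 831 CPM in WT#1-4, Nox4-/-#5-8 and Nox4-/-#5-23, and from 0.08 to 3.25 CPM in WT#20D-17, where the day 0 value is within 3 counts. The rise in that line therefore rests on few reads. In all, 25 members had 3 counts or fewer on day 0 in at least 1 line, and 1 member had so in every line. For these the rise depends on the 1 added to the CPM.

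Epithelial genes were also among the members. A list of simple and squamous epithelial differentiation genes, also drawn up after the member names were seen, held 17 members among 33 measured genes (51.5%). Among the lists not drawn from the names, the epithelial and keratin list had 2 of 18 (Krt19 and Krt8) and the mesothelial list 2 of 11 (Krt19 and Msln). Msln, mesothelin, ended at 134, 424 and 200 CPM in WT#1-4, Nox4-/-#5-8 and Nox4-/-#5-23 and at 4.57 CPM in WT#20D-17. Of the 17 genes, 7 passed the FDR of 0.01 for a higher level on day 7 than on day 3, against 49.6% of all members and 2.29% of all genes. The summed level of 3 epithelial markers that are no members (Epcam, Cdh1 and Krt14) went from 23.6, 36.9 and 24.7 CPM to 285, 154 and 98.4 CPM in WT#1-4, Nox4-/-#5-8 and Nox4-/-#5-23, but from 579 to 275 CPM in WT#20D-17, and its part in these values was not tested.

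Several matrix enzymes and glycoproteins were in the set. Of 22 measured collagen processing enzymes 4 were members (18.2%), namely Loxl2, Loxl4, P4ha1 and P4ha2. None of the 16 interstitial collagens on a fixed list was, but members were only 1.36% of all measured genes, so a list of this length often holds none. Col20a1, a collagen on no list, was a member, with rises between 2.04 and 3.03 units. Sparc, the collagen-binding glycoprotein osteonectin, was the one member among 18 basement membrane genes. It was at 287, 675, 741, 1329 and 2089 CPM on days 0, 3, 5, 7 and 14 in WT#1-4 and at 432, 1078, 2296, 3135 and 12000 CPM in WT#20D-17. In Nox4-/-#5-8 it was at 68.2, 403, 614, 679 and 875 CPM, and in Nox4-/-#5-23 at 37.5, 392, 717, 620 and 824 CPM. All days of the WT lines lay above the same day of the Nox4-/- lines, with a fitted difference of -1.38 log2 units that did not pass the test (adjusted p = 0.685), and the change from day 3 to day 7 was 0.99 ± 0.18 (SE; adjusted p = 0.0071). Loxl4 had the other order, with 241 and 250 CPM on day 14 in the Nox4-/- lines, 153 CPM in WT#1-4 and 3.73 CPM in WT#20D-17. The fibroblast markers named above were highest in WT#20D-17, and their part in the Sparc level was not tested.

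Matrix glycoproteins gave 3 of 30, Ecm1, Thbs1 and Fbln5, and small proteoglycans 1 of 13, Fmod. Thbs1, thrombospondin 1, peaked at 209 CPM on day 3 in WT#20D-17 and fell to 92.9 CPM by day 14, while it rose from 28.9 to 269 CPM in WT#1-4 and from 5.43 to 243 CPM in Nox4-/-#5-23. In Nox4-/-#5-8 it was at 68.9 CPM on day 7 and 30.9 CPM on day 14. Ecm1, extracellular matrix protein 1, rose more evenly, from 2.75 to 9.69 CPM on day 0 to 139, 33.9, 72.2 and 59.5 CPM on day 14, and its day 7 change was 1.69 ± 0.22 (SE; adjusted p = 0.00339).

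Immediate early genes, which answer to growth factors and attachment within minutes through AP-1 and related factors, gave 8 members of 30 measured in another list drawn up after the names were seen. Fos, a subunit of AP-1, ended at 128, 25.4, 76.98 and 60.6 CPM from 14.8, 3.402, 6.27 and 8.995 CPM, and Fosl2, a further subunit, at 229, 80.03, 108 and 297 CPM from 19.3, 1.84, 15.4 and 21.2 CPM. In WT#20D-17 all 8 had passed 50% of their rise by day 3, against 0 in WT#1-4, 1 in Nox4-/-#5-8 and 0 in Nox4-/-#5-23, which by day 5 had 1, 8 and 7. Plaur, the urokinase receptor, was the leading member whose promoter at chr7:24462233-24462482 on the plus strand holds the AP-1 letters TGANTCA, in capitals, which 6.87% of the promoters in the table hold on either strand.
Plaur: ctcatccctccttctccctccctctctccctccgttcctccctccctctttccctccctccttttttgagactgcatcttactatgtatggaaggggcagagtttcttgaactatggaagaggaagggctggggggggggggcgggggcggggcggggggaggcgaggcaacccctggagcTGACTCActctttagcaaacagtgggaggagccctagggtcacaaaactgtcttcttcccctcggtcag
Plaur ended at 176, 128, 101 and 85.7 CPM from 8.81, 7.99, 7.55 and 20.9 CPM. Of the 8 genes 2 passed the FDR of 0.01 for a higher level on day 7 than on day 3. The call was made for 49.6% of all members and 2.29% of all genes. Ccn1, Ccn2 and Thbs1 were members among 20 listed YAP and TEAD targets. Ccn1 ended at 370, 494, 26.99 and 55.3 CPM in the 4 lines, higher in both WT lines on day 14. On days 0 and 5, WT#1-4 was below both Nox4-/- lines, at 4.33 and 16.8 CPM. The genotype difference over days 3, 5 and 7 did not pass edgeR's test (log2 fold change -2.54, adjusted p = 0.685).

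Lysosomal proteins gave 4 of 24 measured genes (16.7%), Ctsd, Gm2a, Lgmn and Ctsf. All 4 passed the FDR of 0.01 for a higher level on day 7 than on day 3, against 49.6% of all members and 2.29% of all genes. Ctsd, the aspartic protease cathepsin D, was at 220, 263, 315 and 318 CPM on day 0, 283, 438, 369 and 565 CPM on day 3, and 1332, 931, 1457 and 1270 CPM on day 14. It was among the most even members, and its day 7 change was 0.84 ± 0.11 (SE; adjusted p = 0.00339). Lgmn, the protease legumain, had the second smallest adjusted p of the named genes, with a change of 1.26 ± 0.12 (SE; adjusted p = 0.0019), and it peaked at 853 CPM on day 7 in WT#20D-17 before falling to 369 CPM. Over the whole lysosomal list, 12 of 24 genes passed the FDR of 0.01 for a higher level on day 7.

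Members of signalling pathways included ligands, receptors and inhibitors. The TGF-β and BMP list gave 4 of 35, namely the ligand Bmp6, the receptor Acvrl1, the inhibitory Smad6 and the target Id1. Bmp6 ended at 48.2 and 18.7 CPM in the WT lines and 3.2 and 7.26 CPM in the Nox4-/- lines, where it had been at 0.04 CPM on day 0. Acvrl1 was the one of these past the FDR between day 3 and day 7 (1.94 ± 0.29, SE; adjusted p = 0.00466). Smad6 and Id1 peaked in WT#20D-17 on day 5, at 94.6 and 248 CPM, and ended there at 12.5 and 63.3 CPM. Of 31 Wnt pathway genes, Wnt11 and Wnt2 were members, and Wnt2 was higher on day 7 than on day 3 by 1.92 ± 0.33 (SE; adjusted p = 0.00654). Of the endothelial list 3 of 19 were members, the adhesion proteins Cdh5 and Esam and the receptor Flt1. Over the whole list, the median of the mean rise was 0.046 units and that of the smallest rise -0.226. The summed level of 4 endothelial markers, which include Cdh5, fell from day 0 to day 14 in WT#1-4 (393 to 282 CPM) and Nox4-/-#5-8 (145 to 115 CPM). It rose in WT#20D-17 (17.7 to 186 CPM) and Nox4-/-#5-23 (159 to 250 CPM). Cdh5, VE-cadherin, went from 8.13, 0.70, 0.36 and 0.15 CPM to 28.3, 95.6, 11.5 and 11.1 CPM.

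**Figure D5:**
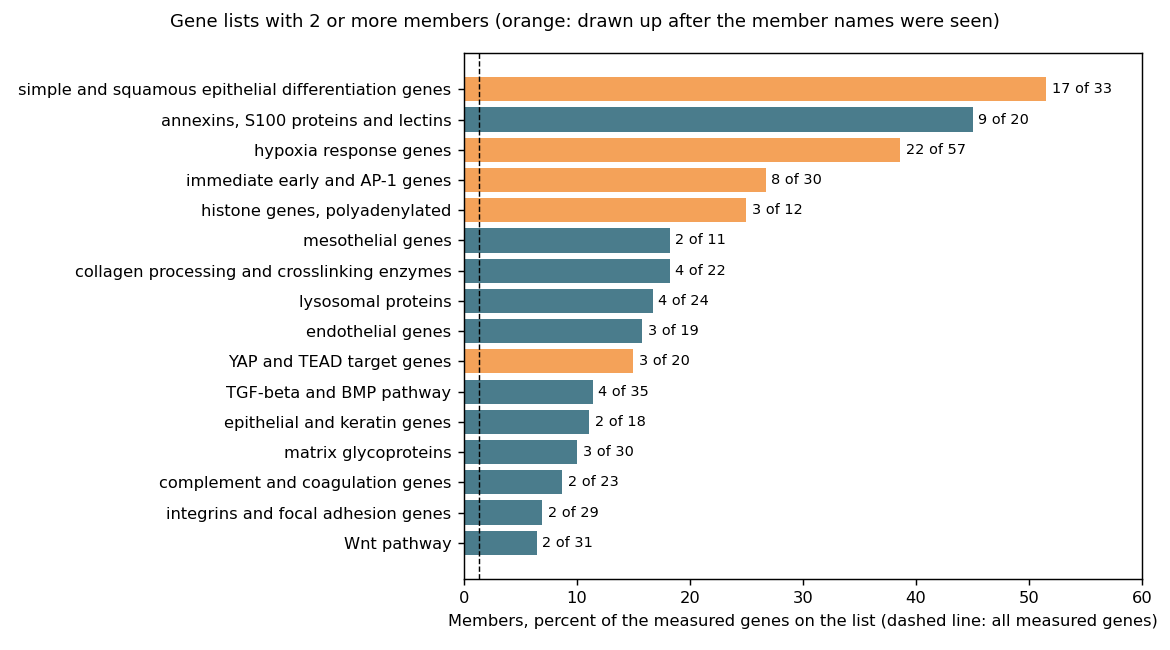
Members as a percent of the measured genes of each list (horizontal axis) for the lists with 2 or more members (vertical axis), with counts beside the bars and a dashed line at the share among all measured genes. Orange bars mark lists drawn up after the member names were seen; among the others, annexins, S100 proteins and lectins lead with 9 of 20.

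Other lists gave 1 or 2 members each. Cnn2, a calponin that binds actin, was the one of 16 smooth muscle genes, and went from 18.1, 71.0, 5.71 and 5.39 CPM to 311, 373, 124 and 92.0 CPM. Its change from day 3 to day 7 was 1.18 ± 0.20 (SE; adjusted p = 0.00584). Ackr3, a scavenger receptor for chemokines, ended at 565, 40.8, 706 and 842 CPM and rose from day 3 to day 7 by 1.33 ± 0.20 (SE; adjusted p = 0.00481). Selenop, the plasma selenium carrier, was the one member of 26 antioxidant and oxidase genes, and ended at 63.5, 247, 87.9 and 10.97 CPM from 8.28, 19.2, 10.6 and 1.12 CPM.

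Fmod, fibromodulin, which binds collagen fibrils, was at or under 0.74 CPM in every line on day 0 and ended at 20.6, 2.05, 10.3 and 16.4 CPM, with no count in WT#20D-17 on day 0. Gadd45g, a growth arrest gene, ended at 30.7, 24.7, 13.3 and 4.81 CPM from 0.78 to 1.39 CPM. H2-T23, a class Ib MHC molecule, ended at 35.6, 17.2, 31.0 and 18.9 CPM. Fmod, Gadd45g and H2-T23 passed the FDR for a higher level on day 7 than on day 3, with adjusted p of 0.00338, 0.00584 and 0.0048. Cd68, a lysosomal membrane protein abundant in macrophages, rose from 2.39, 16.2, 2.08 and 1.86 CPM to 53.2, 66.3, 22.0 and 22.8 CPM, while the summed level of 4 macrophage markers that include it ended at 56.7, 104, 22.7 and 22.9 CPM, so Cd68 made up most of that sum.

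Among the genes on no list were Ccnd2, cyclin D2, Mertk, a receptor for apoptotic cells, and Tmsb4x, thymosin β4, which binds actin monomers. Mertk reached 50% of its rise on day 7 in WT#1-4 and on day 14 in the other lines, and still rose from day 3 to day 7 by 1.37 ± 0.14 (SE; adjusted p = 0.00234). Ccnd2 was at 2.99 CPM on day 0 in WT#20D-17 and at 16.7 to 59.9 CPM in the others, and ended at 136 to 411 CPM. Tmsb4x ended at 388, 568, 296 and 221 CPM from 33.2 to 82.3 CPM. Histone genes of the kind that can be polyadenylated gave 3 of 12 in a list drawn up after the names were seen. Hist1h1c, linker histone H1.2, ended at 109, 98.8, 57.5 and 29.6 CPM from 3.27 to 7.67 CPM.

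Many lists had no member. Members were 1.36% of all measured genes, a share at which lists of this length often hold none. Among the lists for cardiac muscle, skeletal muscle, red cells, visceral endoderm, neurons, neural crest, mesenchymal transcription factors, Hox genes, the IGF family, Notch, PDGF and FGF signalling and pluripotency, none of the measured genes rose by 1.5 units in every line. The 20 measured cardiac muscle genes, for example, had a median mean rise of 1.42 over the lines but a median smallest rise of -0.03. DNA replication and mitosis genes had no member either, and 16 of 20 were lower on day 7 than on day 3 at the FDR of 0.01, a call made for 1.65% of all genes. For all measured genes the median of the smallest rise was -0.62 and that of the mean rise 0.01. Of the 224 members, 93 stood on at least 1 list and 131 on none. Leaving aside the 5 lists drawn up after the member names were seen, 176 members stood on none. Members had a median exon length of 3721 bases, against 4001 for all measured genes.

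The genotypes were compared over the sum of days 3, 5 and 7 in each line, 2 WT against 2 Nox4-/- lines. No member passed an FDR of 0.01 with edgeR's quasi-likelihood test, as was so for 0% of all genes, while at an unadjusted p under 0.05 7 were higher and 18 lower in Nox4-/-, against 1.51% and 4.14% of all genes. DESeq2 called 3 higher and 10 lower, against 0.412% and 2.6% of all genes. The fitted difference was below 0 for 149 members and above 0 for 75, and below 0 for 50.2% of all genes. Its median was -0.44 log2 units for the members, against 0.00 for all genes. Treating the days of a line as replicates in an exact test called 10 members higher and 39 lower in Nox4-/-, against 3.2% and 12% of all genes, but days of 1 line are not independent. Whether the change from day 3 to day 7 differed between the genotypes was tested as an interaction, and no member passed with edgeR or DESeq2 (0% of all genes with edgeR), while at an unadjusted p under 0.05 21 had the larger change in Nox4-/- and 3 the smaller, against 3.55% and 3.21% of all genes. The median interaction was 0.30 for the members and 0.004 for all genes, and it was above 0 for 172 members and 50.3% of all genes. Without WT#1-4, where WT#20D-17 is the single WT line, 41 members passed with the larger and 5 with the smaller change in Nox4-/-, against 3.26% and 3.99% of all genes.

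At the threshold, 1 member on chromosome 18, which is not described here, had a smallest rise of 1.501. The next members inside were Ndrg4, Rap1gap, Tmbim1, Itgb5 and Ctsf, with smallest rises between 1.503 and 1.522 units. Just outside were Elf3, Sema3b, Arhgef28, Itgb4 and Prnp, with smallest rises between 1.478 and 1.495. Itgb4, an integrin chain of epithelial cells, rose by 4.58, 3.60 and 3.11 units in WT#1-4, Nox4-/-#5-8 and Nox4-/-#5-23 and by 1.49 in WT#20D-17. Elf3, an epithelial transcription factor, rose by 2.31 to 2.51 units in 3 lines and by 1.495 in Nox4-/-#5-23, just short of the threshold.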

How the data were processed

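RNA-seq was analysed for 20 libraries of 4 lines on 5 days. Per the study's methods, the authors prepared stranded mRNA libraries, trimmed paired-end reads, mapped them with STAR 2.6.0c to GRCm38 and estimated expression with RSEM 1.3.1. They deposited gene-level expected counts without normalization, which were rounded to whole numbers here. RSEM divides reads shared by overlapping or near-identical genes, and 50 members had values with decimals. Exons of 63 members overlap a gene on the opposite strand and those of 16 a gene on the same strand, and whether RSEM used the strand is not given in the sources used here. Symbols and positions came from GENCODE M21, in which 55480 identifiers were found.

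TMM factors (0.909 to 1.05) were computed over all libraries, and 1 was added to the CPM. Tests used edgeR 4.0.16 (R 4.3.3, limma 3.58.1) with Benjamini-Hochberg adjustment over all genes with a mean count of 10 or more, at an FDR under 0.01. DESeq2 1.42.0 was an alternative, and the scripts were checked on simulated counts. The study's time course tool was not used. Each line was sampled on every day, so the line entered the day fit as the replicate block. Deviations of a line from its genotype and day mean correlated between days with r of 0.772 to 0.921. The members and the gene lists, 41 fixed and 5 added after member names were seen, were chosen with earlier results of these data known. Named genes were the 10 with the largest smallest rise, the 10 with the highest day 14 CPM, up to 4 per list, 5 on each side of the threshold, up to 5 for each shared or genotype-ordered day of the rise, and up to 5 with the largest day 7 change. Members of the added lists, Anxa1, the S100 genes, and Ccnd2, Mertk and Tmsb4x were otherwise named after their values were seen. Results for some genes that the rule names are not reported here. Depth limits and floors cover counting error only.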

Additional observations from a re-analysis of the deposited data

Results flagged for a closer look

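Over the 4 lines, 35 summary values and named rises were screened for a line that stood far from the other 3. Chance alone would mark about 1 in 20 such groups, and 3 of 35 were marked. The median gain of the members by day 3 was 1.24 log2 units in WT#20D-17, apart from the other lines at 0.81 to 0.85. The median level on day 14 was 6.46 in WT#1-4 on the log2(CPM + 1) scale, above 5.83, 5.78 and 5.77 in WT#20D-17, Nox4-/-#5-8 and Nox4-/-#5-23. The rise of Tinagl1 was 8.31 units in WT#20D-17, against 3.59 to 4.35 in the other lines.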

How the results depend on the processing

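The set held 524 genes at a rise of 1 unit and 114 at 2 units, 337 with 0.25 and 111 with 5 added to the CPM, and between 271 and 558 when 1 line was left out. With other scalings it held 207 to 244 genes. The members past a given share of their rise by day 5 were 173 (25% of the rise) and 12 (75%) in WT#1-4, 99 (75%) in WT#20D-17, 216 and 57 in Nox4-/-#5-8, and 64 (75%) in Nox4-/-#5-23. Members higher on day 7 than day 3 numbered 192 at an FDR of 0.05 (1667 of 16516 genes) and 191 without the filter on low counts (1122 of 33631 genes). They numbered 191 with DESeq2 (8.58% of all genes), and 0 to 180 when 1 line was left out (0 to 1227 genes). Without the replicate block the count was 0, as it was for all genes, so any call needs the line in the fit. For day 5 against day 3 the counts were 33 without the filter (72 of 33631 genes), 40 with DESeq2 (0.636% of all genes) and 161 at an unadjusted p under 0.05 (8.49%). For day 7 against day 5 they were 1 (3 of 33631 genes), 4 (0.121% of all genes) and 105 (4.41%). Between genotypes they were 49 with the exact test on pooled days, 13 with DESeq2 and 25 at an unadjusted p under 0.05. For the interaction they were 0 to 46 with 1 line left out, and 24 at an unadjusted p under 0.05. The unadjusted p was added after the data were seen. The change of Tgm1 from day 3 to day 7 was 0.18 with all lines, -0.053 without the block and -0.059 to 0.368 with 1 line left out, lowest without Nox4-/-#5-8. That of Ndufa4l2 was 0.19 with all lines and -0.095 to 0.649 with 1 line left out, below 0 without WT#1-4 (-0.067) and without Nox4-/-#5-23. The causes were not tested. Depth limits the rises of the 25 members with 3 counts or fewer on day 0 in at least 1 line.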
